A study of Mus musculus with 8 samples.

Results

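The insulin-like growth factor (IGF) genes were followed across 3 mouse cell types. The set holds 10 genes: the ligands Igf1 and Igf2, the receptors Igf1r and Igf2r, and the binding proteins Igfbp2, Igfbp3, Igfbp4, Igfbp5, Igfbp6 and Igfbp7. They were picked by gene name, with earlier results of these data known, and every probe set annotated to a single gene of this list was taken. All 10 were measured, by 28 probe sets, among 18193 genes in all. Messenger RNA had been hybridised to a whole-genome oligonucleotide array in wild-type V6.5 ES cells (3 arrays), wild-type neural precursor cells (NPC, 3 arrays) and wild-type primary embryonic fibroblasts (MEF, 2 arrays). ES cells are pluripotent cells of the early embryo. They had been grown with leukemia-inhibiting factor on irradiated MEF feeders and then passaged on gelatin, a step meant to remove the feeders. NPC were made from ES cells in culture by way of embryoid bodies and selection in ITSFn medium, and were kept in FGF2 and EGF2. MEF were grown in serum. The ES line behind the NPC, and the strain and embryonic age of the MEF, are not given in the labels.

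IGF1 and IGF2 are small secreted growth factors related to insulin. Both signal through the receptor tyrosine kinase IGF1R, which acts on the PI3K and AKT pathway and on the RAS and MAP kinase pathway. IGF2R, also the cation-independent mannose 6-phosphate receptor, carries IGF2 to lysosomes for breakdown and is not a signalling kinase. The IGF binding proteins (IGFBP) hold the ligands outside the cell and are cut by secreted proteases, which frees the ligand. In the mouse, Igf2 is an imprinted gene expressed from the paternal allele and Igf2r is imprinted in the opposite sense. Igf2 is a main growth factor of the embryo and of mesenchyme.

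Values are given as log2(intensity + 16) after quantile normalization, a scale with a floor at 4. Since 16 was added to each intensity, folds of genes near the floor are understated. A difference was called when limma's adjusted p, taken over all genes, was under 0.05 and the log2 difference was at least 1 in size. The signal of a probe set cannot be set against that of another gene's, so levels were compared only between cell types. Whether replicate arrays stand for separate cultures is not stated, so each p-value reflects array-to-array spread that may be purely technical. A bulk array cannot tell fewer cells of a type from less RNA per cell.

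The labelled cell types carried their markers. The mean over 5 ES markers (Pou5f1, Nanog, Zfp42, Sox2 and Tdgf1) was 11.90 to 12.02 on the ES arrays. The mean over 5 NPC markers (Nes, Fabp7, Olig2, Sox2 and Pax6) was 10.38 to 10.82 on the NPC arrays. The mean over 6 fibroblast markers (Col1a1, Col1a2, Col3a1, Thy1, Twist1 and Pdgfra) was 11.19 on each MEF array. It was 6.05 to 6.10 on the ES arrays and 5.21 to 5.32 on the NPC arrays. NPC 1 was the least like its fellows: over all probe sets it correlated at 0.967 with NPC 2 and 0.969 with NPC 3, which correlated at 0.987 with each other, and the lowest value within ES was 0.986. The arrays also differed in brightness as deposited, with 2% trimmed means of 111 to 153 for ES, 119 to 128 for NPC and 232 for both MEF arrays.

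The sequences just before the starts of 5 members are shown, because these genes gave the clearest contrasts below: Igf2 and Igfbp7 shared an order of levels, Igfbp3 was high in NPC, and the neighbouring Igfbp2 and Igfbp5 moved in opposite directions between ES cells and MEF. Each run is the 250 bases before an annotated RefSeq start (GRCm38.p6), read 5′ to 3′ on the gene's strand. Capitals mark motif letters found on either strand. A GC box was searched as GGGCGG. A second motif, the CCAAT box, was searched by the letters of its name. The TATA box was searched as TATAAA, and none of the matches overlap. Of Igf2's 4 annotated starts, the window with most CpG dinucleotides is shown. Igfbp2 has 2 annotated starts, and the window at its first is shown.
Igf2, chr7:142658805-142659054, minus strand: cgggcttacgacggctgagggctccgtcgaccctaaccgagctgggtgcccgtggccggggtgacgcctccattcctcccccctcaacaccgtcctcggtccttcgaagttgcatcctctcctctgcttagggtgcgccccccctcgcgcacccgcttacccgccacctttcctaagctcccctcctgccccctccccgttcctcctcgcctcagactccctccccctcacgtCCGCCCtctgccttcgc
Igfbp7, chr5:77408046-77408295, minus strand: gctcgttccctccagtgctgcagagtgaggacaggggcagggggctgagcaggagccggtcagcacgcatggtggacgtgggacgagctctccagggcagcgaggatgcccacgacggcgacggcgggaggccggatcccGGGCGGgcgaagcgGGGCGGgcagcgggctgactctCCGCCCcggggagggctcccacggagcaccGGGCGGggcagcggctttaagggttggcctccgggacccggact
Igfbp3, chr11:7213924-7214173, minus strand: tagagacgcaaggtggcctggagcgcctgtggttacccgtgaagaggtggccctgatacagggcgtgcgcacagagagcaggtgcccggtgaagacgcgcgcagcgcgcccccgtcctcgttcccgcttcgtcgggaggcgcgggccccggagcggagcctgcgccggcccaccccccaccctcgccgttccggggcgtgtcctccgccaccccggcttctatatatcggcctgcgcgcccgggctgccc
Igfbp2, chr1:72824230-72824479, plus strand: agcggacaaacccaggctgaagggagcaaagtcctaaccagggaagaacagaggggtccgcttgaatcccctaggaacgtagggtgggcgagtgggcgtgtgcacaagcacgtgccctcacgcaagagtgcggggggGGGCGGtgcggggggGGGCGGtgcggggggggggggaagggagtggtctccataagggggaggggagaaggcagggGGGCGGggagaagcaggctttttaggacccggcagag
Igfbp5, chr1:72874866-72875115, minus strand: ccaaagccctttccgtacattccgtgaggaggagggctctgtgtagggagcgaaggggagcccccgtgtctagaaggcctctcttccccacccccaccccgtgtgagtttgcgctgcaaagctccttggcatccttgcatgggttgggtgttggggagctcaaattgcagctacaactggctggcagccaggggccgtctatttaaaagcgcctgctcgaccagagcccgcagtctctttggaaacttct

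These windows differed in base composition. The Igfbp3 window held 32 CpG dinucleotides, more than 95.4% of the 32851 windows of this length in the table, and that of Igfbp7 held 26. The Igf2 window shown held 22 and the one at its first start 1. The Igfbp2 window shown held 14, and the one at its second start held 11 and no GC box. The Igfbp5 window held 10, and the median over all windows was 6. A GC box was found 4 times in the Igfbp7 window, 3 times in that of Igfbp2 and once in that of Igf2, and it occurs in 32.7% of all windows. A CCAAT box occurs in 33.8% of all windows and a TATA box in 12.4%, and neither was matched in these 5. Among the other members, Igfbp4 and Igfbp6 each had a TATA box match, and Igf1r had the most CpG dinucleotides, 42. These are matches of letters, and the arrays do not show which start was used.

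The comparison of NPC with ES cells gave 6 of the 10 genes called. Igf1r, Igfbp3, Igfbp4 and Igfbp5 were higher in NPC, and Igf2 and Igfbp7 were lower. Over all genes 22.9% were called, 10% higher and 12.9% lower. The members' median log2 difference was 0.20, against -0.05 over all genes. In MEF against ES cells, 9 of 10 were called, against 25% of all genes. Of these, 8 were higher in MEF, where 12.2% of all genes were, and Igfbp2 was lower, where 12.8% were. The members' median was 2.31, against -0.04 over all genes. In MEF against NPC, 8 of 10 were called, against 18.5% of all genes. Of these, 6 were higher in MEF (10.5% of all genes) and Igfbp2 and Igfbp3 were lower (7.95% of all genes), with a median of 1.53 against -0.01. The 3 comparisons share arrays in pairs. The scaling between arrays moved the balance of calls over all genes. Under quantile normalization 48.9% of the calls in MEF against ES cells were higher in MEF. This share was 65.1% when arrays were centred on their medians and 79.4% at the deposited scaling, and the shares against NPC were 56.9%, 74.2% and 87.6%. With no rescaling the median difference of all genes was 0.32 in MEF against ES cells and 0.43 against NPC. The members gave 8 higher and 1 lower in MEF against ES cells under all 4 scalings tried, and 7 higher and 2 lower in MEF against NPC at the deposited scaling, where Igf1r was also called. The sizes of their MEF differences moved with the scaling, in Igf1r from 0.18 to 1.10 against NPC.

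**Figure D1:**
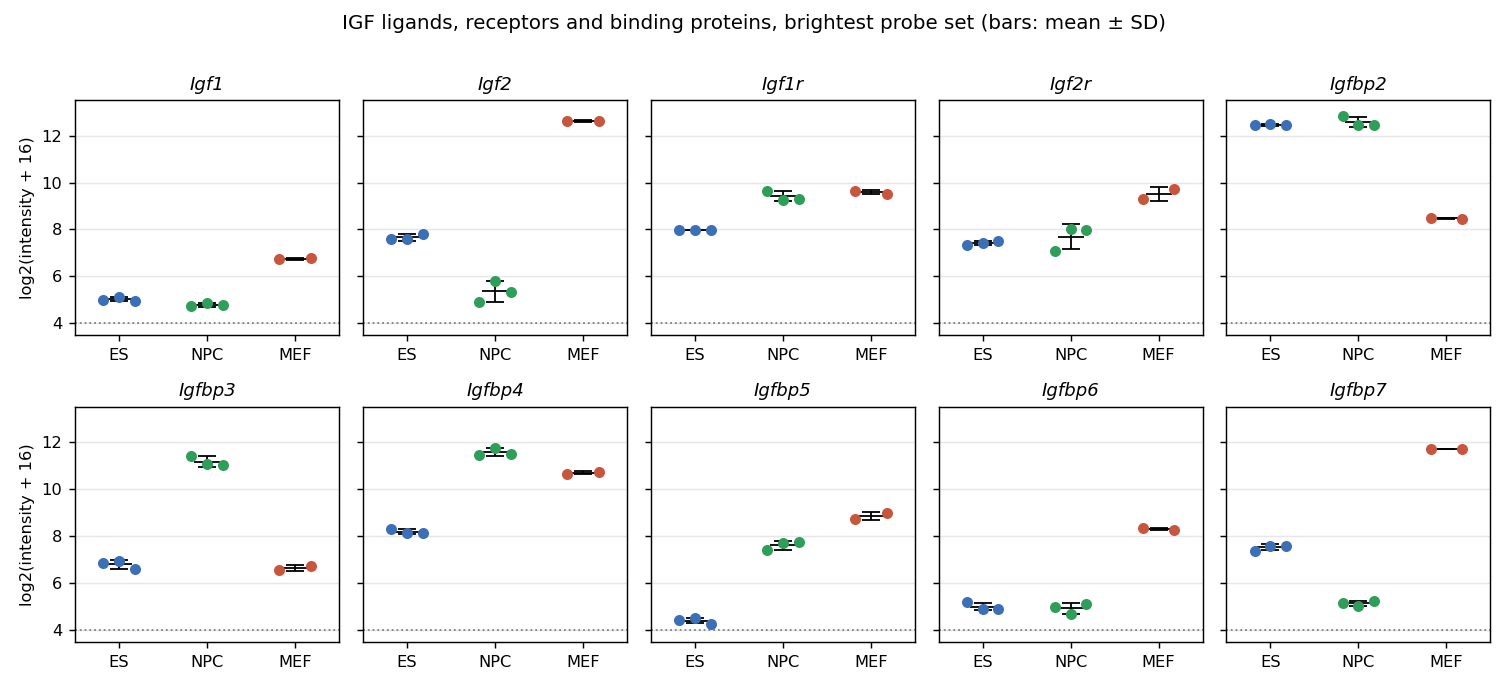
Level of each IGF gene, as log2(intensity + 16) of its brightest probe set, on the ES (3), NPC (3) and MEF (2) arrays; points are arrays, black bars the mean and SD, and the dotted line the floor at 4. Igf2 and Igfbp7 sit lowest in NPC and highest in MEF, Igfbp3 is high on the 3 NPC arrays alone (11.04 to 11.44), and Igfbp2 is low in MEF alone (8.46 and 8.49).

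Of the ligands, Igf2 was bright in MEF and dim in NPC. It read 7.57, 7.57 and 7.83 in ES cells, 4.92, 5.81 and 5.35 in NPC, and 12.60 and 12.64 in MEF. No group overlapped another, and all 3 NPC arrays were within 2 log2 units of the floor. As deposited, its intensity was 154 to 175 in ES cells, 13.6 to 32.9 in NPC and 8518 and 8404 in MEF. Igf2 was 31.2-fold higher in MEF than in ES cells (log2 difference 4.96, SE 0.22, limma adjusted p = 3.16e-07). It was 153-fold higher in MEF than in NPC (7.26, SE 0.22, limma adjusted p = 4.32e-08), with NPC near the floor. Over the settings tried this difference ran from 5.31 to 7.96, lowest when the probe sets of Igf2 were averaged. Between the ES-derived types Igf2 was 4.92-fold lower in NPC (-2.30, SE 0.20, limma adjusted p = 1.4e-05). Its other probe set was dimmer, at 4.23 to 4.62 in ES cells, 4.09 to 4.72 in NPC and 7.67 and 7.68 in MEF. That probe set was higher in MEF in both comparisons (3.27 and 3.36), while in NPC against ES cells it was near the floor in both groups and did not differ (-0.09, limma adjusted p = 0.777).

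The gene next to Igf2 on chromosome 7 is the insulin gene Ins2. It was at 4.30 to 4.72 on all 8 arrays, near the floor. Igf2os, an RNA antisense to Igf2, was at 5.80 and 5.88 in MEF and 4.07 to 5.27 elsewhere, and was higher in MEF than in NPC (1.44, limma adjusted p = 0.00184), a call that a pseudocount of 64 ended (0.60). How far signal from each strand reached these probe sets was not tested.

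Igf1, the ligand best known as the effector of growth hormone, was dim throughout. Its brightest probe set gave 5.01, 5.13 and 4.97 in ES cells, 4.73, 4.88 and 4.77 in NPC, and 6.72 and 6.76 in MEF. The MEF arrays were the high ones, with deposited intensities of 135 and 142 against 9.7 to 17.2 on the other 6. Igf1 was 3.27-fold higher in MEF than in ES cells (1.71, SE 0.16, limma adjusted p = 2.12e-05), a call that ended with a pseudocount of 64 (0.95). Against NPC it was 3.87-fold higher (1.95, SE 0.16, limma adjusted p = 1.39e-05). All 4 probe sets were higher in MEF in both comparisons, by 1.37 to 2.42. NPC and ES cells differed by -0.24 (limma adjusted p = 0.204) on the brightest probe set and by -1.05 on another (limma adjusted p = 0.00123 over probe sets), which was the only Igf1 probe set called there.

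Some markers of macrophages, which can also express Igf1, were higher in MEF. Of 12 macrophage and blood genes, 6 were higher and 2 lower in MEF than in ES cells, where 12.2% and 12.8% of all genes were. In MEF against NPC 8 of them were higher, against 10.5% of all genes. Their mean level was 6.41 and 6.51 on the MEF arrays, 5.14 to 5.26 in ES cells and 4.65 to 4.70 in NPC. Lyz2 was at 8.94 and 9.03 in MEF, Cd53 at 7.00 and 7.07, Tyrobp at 7.03 and 7.04 and Ptprc at 6.37 and 6.05, with values of 4.03 to 5.16 for these 4 on the other arrays. Csf1r was at 6.84 and 6.83 in MEF and 5.68 to 6.44 elsewhere, and was not called. Cd68 and Laptm5 ran the other way against ES cells: they were at 8.02 to 8.45 in ES cells, 6.76 to 6.86 in MEF and 4.35 to 5.17 in NPC. Aif1 and Itgam stayed under 5 on every array. The part of such cells in the Igf1 signal was not tested.

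The receptors showed smaller differences. Igf1r was at 7.98, 7.96 and 7.98 in ES cells, 9.65, 9.26 and 9.30 in NPC, and 9.64 and 9.53 in MEF. ES arrays were low, and the NPC and MEF arrays overlapped. Igf1r was 2.70-fold higher in NPC (1.44, SE 0.11, limma adjusted p = 6.46e-06) and 3.06-fold higher in MEF (1.61, SE 0.12, limma adjusted p = 6.68e-06) than in ES cells. MEF and NPC differed by 0.18 (SE 0.12, limma adjusted p = 0.314), and by a called 1.10 at the deposited scaling. That scaling moved Igf2r and Igfbp4, in the same comparison, by a like amount (from 1.82 to 2.69 and from -0.88 to 0.01). Its 5 probe sets all had higher means in both types than in ES cells, and 3 of 5 were called in each comparison. In MEF against NPC they ran from -0.81 to 0.92 with no call, since each was under 1 in size.

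Igf2r was highest in MEF. It was at 7.32, 7.41 and 7.49 in ES cells, 7.06, 8.02 and 7.99 in NPC, and 9.29 and 9.72 in MEF. NPC 1 lay below the ES arrays and the other NPC arrays above them. Igf2r was 4.29-fold higher in MEF than in ES cells (2.10, SE 0.27, limma adjusted p = 0.000186) and 3.53-fold higher than in NPC (1.82, SE 0.27, limma adjusted p = 0.000648). NPC and ES cells differed by 0.28 (SE 0.24, limma adjusted p = 0.399), and by 0.60 without NPC 1, also not called. The second probe set gave 1.77 and 1.27 for the MEF comparisons, both called. Airn, the antisense RNA of the Igf2r locus that is expressed from the paternal allele, was at 5.03 to 5.35 in ES cells, 7.00, 7.71 and 7.56 in NPC, and 6.55 and 6.74 in MEF. It was higher in NPC (2.21, limma adjusted p = 2.04e-05) and in MEF (1.43, limma adjusted p = 0.000681) than in ES cells, but the MEF call was lost when its probe sets were averaged and at a pseudocount of 64. A further probe set annotated to both Airn and Igf2r was left out by the rule, and it stayed between 4.15 and 4.97.

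The binding proteins fell into different patterns. Igfbp2, a binding protein of fetal tissue and brain, was bright in both ES-related types. It was at 12.43, 12.50 and 12.44 in ES cells, 12.84, 12.46 and 12.45 in NPC, and 8.49 and 8.46 in MEF. Only the MEF arrays were low. It was 15.8-fold lower in MEF than in ES cells (-3.98, SE 0.12, limma adjusted p = 2.94e-08) and 17.2-fold lower than in NPC (-4.11, SE 0.12, limma adjusted p = 2.77e-08). NPC and ES cells overlapped (0.12, SE 0.10, limma adjusted p = 0.379), and without NPC 1 the difference was -0.0043. Igfbp2 was read from a single probe set.

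Igfbp5, which binds matrix as well as IGFs, lies next to Igfbp2 on chromosome 1. Its brightest probe set was at 4.43, 4.52 and 4.28 in ES cells, 7.40, 7.69 and 7.77 in NPC, and 8.73 and 8.98 in MEF. The 3 groups were separate, with ES cells near the floor. Igfbp5 was 9.27-fold higher in NPC (3.21, SE 0.15, limma adjusted p = 3.12e-07) and 21.8-fold higher in MEF (4.45, SE 0.17, limma adjusted p = 1.42e-07) than in ES cells, and 2.35-fold higher in MEF than in NPC (1.23, SE 0.17, limma adjusted p = 0.000395). The folds over ES cells rest on deposited intensities of 3.23 to 6.40 there, below the array medians of 19.3 to 23.8, and their size moved with the pseudocount and the choice of probe sets. Over the settings tried the log2 difference ran from 1.67 to 4.90 for NPC and from 2.89 to 6.21 for MEF. The probe sets disagreed for NPC. The dimmer one was at 5.03 to 5.68 in ES cells and 5.42 to 5.65 in NPC, a difference of 0.12 (limma adjusted p = 0.675 over probe sets), and at 7.08 and 7.02 in MEF, where it was called (1.66 and 1.54). The mean of both probe sets gave 1.67 for NPC against ES cells, still called.

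Igfbp3, the main carrier of IGFs in blood, was high in NPC. It was at 6.88, 6.93 and 6.59 in ES cells, 11.44, 11.08 and 11.04 in NPC, and 6.56 and 6.75 in MEF. The NPC arrays lay over 4 log2 units above the rest, and ES and MEF arrays overlapped. Igfbp3 was 20.9-fold higher in NPC than in ES cells (4.39, SE 0.14, limma adjusted p = 3.2e-08) and 23.2-fold lower in MEF than in NPC (-4.53, SE 0.16, limma adjusted p = 7.51e-08). MEF and ES cells differed by -0.15 (limma adjusted p = 0.501). The sign of that difference turned with median centring (0.22), at the deposited scaling (0.54) and with the mean of probe sets (0.098), with no call under these settings. The second probe set showed the same contrast, at 10.26 to 10.87 in NPC and 6.31 to 6.84 elsewhere. Its neighbour on chromosome 11, Igfbp1, known from liver, was at 4.05 to 4.45 on all 8 arrays.

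Igfbp4, whose protein is cut by the protease PAPPA, was lowest in ES cells. It was at 8.32, 8.14 and 8.12 in ES cells, 11.48, 11.78 and 11.53 in NPC, and 10.68 and 10.75 in MEF, with no overlap between groups. It was 10.6-fold higher in NPC (3.40, SE 0.097, limma adjusted p = 1.7e-08) and 5.73-fold higher in MEF (2.52, SE 0.11, limma adjusted p = 2.62e-07) than in ES cells. The 6 probe sets were all called higher in both comparisons, by 2.87 to 3.81 and by 1.88 to 2.85. MEF against NPC gave -0.88 (limma adjusted p = 0.000193), under the minimum of 1, and 0.01 at the deposited scaling. In that comparison 3 of the 6 probe sets were called lower. All 6 probe sets carry suffixes that mark sequence shared between transcripts or genes.

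Igfbp6, which prefers IGF2 to IGF1, was at 5.19, 4.91 and 4.91 in ES cells, 5.00, 4.68 and 5.12 in NPC, and 8.33 and 8.27 in MEF. It was near the floor outside MEF. It was 9.85-fold higher in MEF than in ES cells (3.30, SE 0.19, limma adjusted p = 1.34e-06) and 10.3-fold higher than in NPC (3.37, SE 0.19, limma adjusted p = 1.64e-06), from its only probe set. With the low groups near the floor, these differences ran from 2.19 to 4.16 and from 2.21 to 4.30 over the settings tried. NPC and ES cells differed by -0.07 (limma adjusted p = 0.793).

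Igfbp7, a low-affinity member of the family also known from blood vessels, followed the order of Igf2. It was at 7.38, 7.60 and 7.59 in ES cells, 5.15, 5.03 and 5.25 in NPC, and 11.74 and 11.73 in MEF. The groups did not overlap. Igfbp7 was 18.5-fold higher in MEF than in ES cells (4.21, SE 0.12, limma adjusted p = 3.04e-08) and 96.4-fold higher than in NPC (6.59, SE 0.12, limma adjusted p = 3.73e-09), differences that ran from 1.97 to 5.01 and from 2.88 to 7.39 over the settings tried, lowest when its probe sets were averaged. It was 5.22-fold lower in NPC than in ES cells (-2.38, SE 0.11, limma adjusted p = 2.68e-07), which fell short of the minimum when its 3 probe sets were averaged (-0.91). A second probe set was called for MEF only (1.56 and 1.88), and the third stayed at 4.15 to 4.51 on all arrays. Of 10 endothelial markers, 1 was higher and 3 were lower in MEF than in ES cells, where 12.2% and 12.8% of all genes were. In MEF against NPC 2 were higher, against 10.5% of all genes. Their mean level was 5.15 and 5.28 in MEF, 5.34 to 5.49 in ES cells and 4.59 to 4.85 in NPC. Pecam1 was at 4.27 and 4.17 in MEF and Cdh5 at 4.61 and 4.67, near the floor, while Pecam1 was at 6.88 to 7.12 in ES cells. Kdr was at 5.69 and 5.97 in MEF. The 2 higher in MEF than in NPC were Flt1 and Eng. Eng was at 6.46 and 6.57 in MEF, 4.91 to 5.72 in NPC and 6.98 to 7.09 in ES cells. Flt1 alone was higher in MEF than in ES cells, at 8.12 and 8.46 against 4.88 to 5.77.

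The levels of Igf2 and Igfbp7 in ES cells lay between those of NPC and MEF, and fibroblast markers were also higher there than in NPC. In NPC against ES cells, 4 of the 6 fibroblast markers were lower (12.9% of all genes were), while Twist1 was higher and Col3a1 was not called. Col1a1 was at 5.98 to 6.39 in ES cells and 4.10 to 4.24 in NPC. Whether any feeder RNA remained after the passages on gelatin was not tested. Muscle and smooth muscle markers moved with MEF too: 6 of 8 were higher than in ES cells and 7 of 8 higher than in NPC. Of all genes 12.2% and 10.5% were. The markers' mean levels were 8.71 and 8.76 in MEF, 6.35 to 6.54 in ES cells and 4.65 to 4.82 in NPC. Their part in the levels of the IGF genes was not tested.

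**Figure D2:**
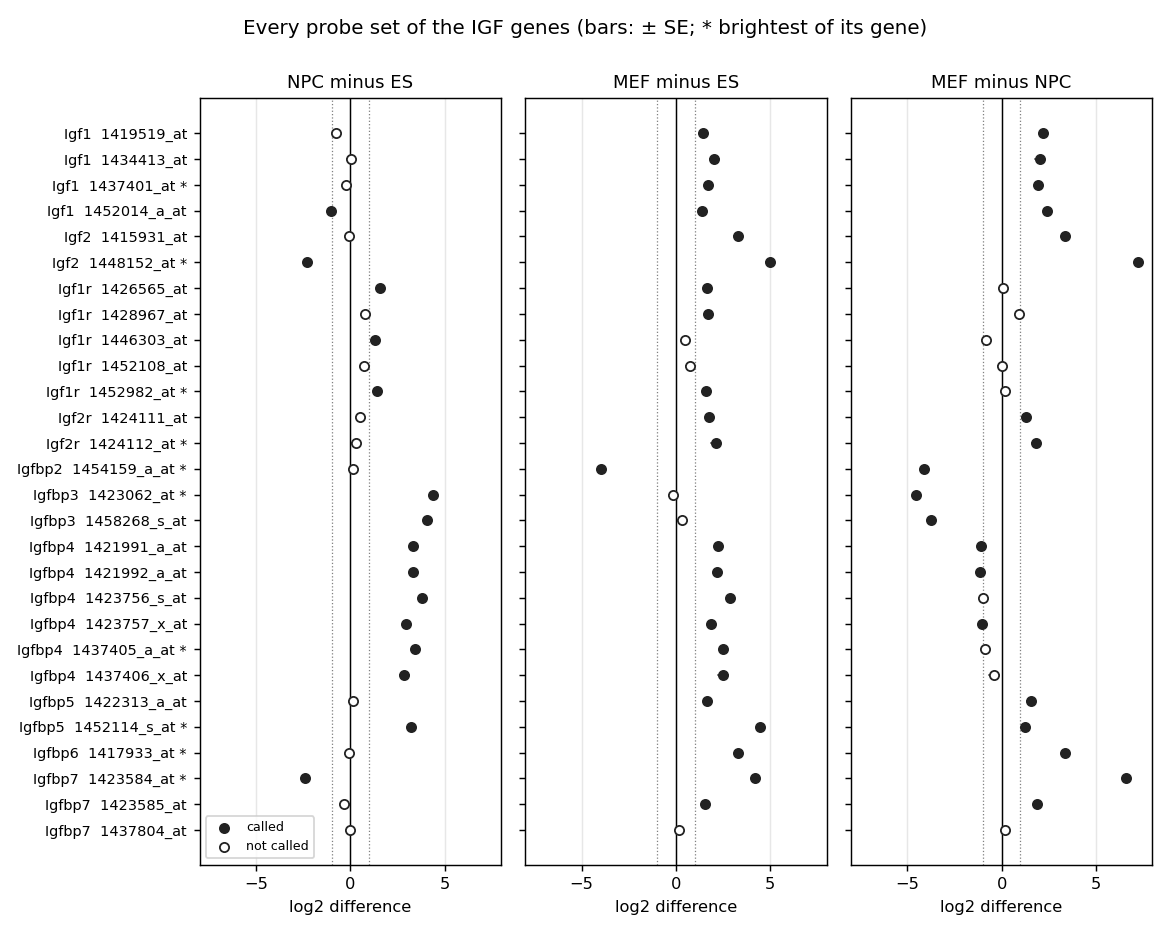
Log2 difference of each of the 28 probe sets in the 3 comparisons, with bars for the standard error (mostly smaller than the points) and dotted lines at a difference of 1; filled points were called over all 34945 probe sets with a single gene. The probe sets of a gene lie on the same side in most cases. In NPC against ES cells the dimmer probe sets of Igf2, Igfbp5 and Igfbp7 lie between -0.32 and 0.12, while their brightest ones lie beyond 1 in size.

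At the level of probe sets, 15 of the 28 were called in NPC against ES cells, 23 in MEF against ES cells and 19 in MEF against NPC. Over all probe sets with a single gene, 20.1% were called in NPC against ES cells (9.69% higher, 10.4% lower), 22.3% in MEF against ES cells (11.7% higher, 10.5% lower) and 17.5% in MEF against NPC (9.68% higher, 7.84% lower). Probe sets of a gene share their transcript and are not replicates. No gene had probe sets called in opposite directions in the same comparison. The cases in which a gene's probe sets split into called and not called were those of Igf1, Igf2, Igf1r, Igfbp5 and Igfbp7 in NPC against ES cells, Igf1r and Igfbp7 in MEF against ES cells, and Igfbp4 and Igfbp7 in MEF against NPC.

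For the 7 members whose group means spanned at least 3 log2 units, the genes with the most similar profile were found by the root mean square distance of their 8 centred values. Igf2 lay closest to Myl9 (0.36), Thbs1 (0.38) and Cthrc1 (0.41). Igfbp7 lay closest to Gask1b (0.14), Cthrc1 (0.18) and Crabp1 (0.20), so that Cthrc1, a secreted protein of mesenchyme, was near both. Igfbp3 lay closest to Prkcb (0.17), E130114P18Rik (0.19) and C130071C03Rik (0.20), which were at 8.34 to 9.80 in NPC and 4.06 to 5.39 elsewhere. Igfbp4 lay closest to Cdkn2c (0.14), a CDK inhibitor, Eid1 (0.15) and Zmiz1 (0.17). Igfbp5 lay closest to Lhfp (0.19), Pcdh18 (0.21) and Zfp703 (0.22), and Igfbp6 to Foxs1 (0.088), Ppbp (0.15) and Ccl6 (0.16). Igfbp2 lay closest to Pipox (0.20), Fut9 (0.26) and Erdr1 (0.28). With 8 arrays in 3 groups, these distances mostly compare 3 group means.

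Beyond these 10, 86 of 101 listed genes of the pathway were measured, in 6 lists. In NPC against ES cells 21 were higher and 13 lower, in MEF against ES cells 28 were higher and 9 lower, and in MEF against NPC 18 were higher and 6 lower. The same shares over all genes are those given for the members (22.9%, 25% and 18.5% called). Their median differences were 0.08, 0.55 and -0.06, against -0.05, -0.04 and -0.01 over all genes. At the deposited scaling the counts for MEF were 46 higher and 6 lower against ES cells and 30 and 1 against NPC. At that scaling 4344 of all genes were higher and 1128 lower against ES cells, and 4468 and 633 against NPC.

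Most genes in the list of proteases and protease inhibitors were higher in MEF than in ES cells, and most were not called between MEF and NPC. Which of them cut binding proteins was not tested, and Htra1, described below, was counted in another list. Of the 15 listed genes, 11 were higher in MEF than in ES cells and 4 were not called. In MEF against NPC 5 were higher and 10 not called, and in NPC against ES cells 6 were higher, Mmp2 was lower and 8 were not called. Over all genes 25% were called in MEF against ES cells, 18.5% in MEF against NPC and 22.9% in NPC against ES cells. The list's median difference was 1.38 in MEF against ES cells and 0.59 against NPC. Pappa, which cleaves IGFBP4, was at 9.31 and 9.33 in MEF, 4.36, 5.21 and 4.89 in ES cells and 4.35, 4.67 and 4.28 in NPC. It was near the floor in both ES-related types, and 4.50 higher in MEF than in ES cells (limma adjusted p = 1.16e-06) and 4.89 higher than in NPC (limma adjusted p = 9.38e-07). Stc1, which encodes an inhibitor of PAPPA, was at 4.97 to 5.14 in ES cells, 6.81 to 7.04 in NPC, and 6.13 and 6.31 in MEF. Adam12, a membrane protease that cuts IGFBP3 and IGFBP5, was at 4.69 to 4.82 in ES cells, 10.78 to 10.92 in NPC, and 10.14 and 10.30 in MEF. It was among the largest changes of the list (6.11 in NPC and 5.49 in MEF against ES cells, limma adjusted p = 9.79e-10 and 6.54e-09).

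The other leading genes of this list were Prss23, a serine protease (4.93 in MEF against ES cells and 4.55 against NPC), and Plat, the tissue plasminogen activator (4.64 in NPC and 3.83 in MEF against ES cells). Bmp1, a procollagen protease, was 2.86 higher in NPC and 3.65 higher in MEF than in ES cells. Mmp2 was lower in NPC than in ES cells (-1.73) and 4.15 higher in MEF than in NPC. In the list of further binding proteins and the insulin family, 2 of 10 were higher in MEF in both comparisons. Of all genes, 12.2% were higher in MEF against ES cells and 10.5% against NPC. The 2 were Esm1 (1.80 against ES cells, a call lost at a pseudocount of 64) and Htra1, a protease of IGFBP5. Htra1 was at 10.62 and 10.60 in MEF, 8.33 to 8.43 in ES cells, and 6.38, 8.35 and 8.53 in NPC, where NPC 1 lay apart. Its difference between MEF and NPC was 2.86, and 2.19 without NPC 1. The insulin receptor gene Insr was at 6.58 to 6.88 in ES cells, 6.89 to 7.55 in NPC and 6.77 and 6.87 in MEF, and was not called. Igfals, which encodes the acid-labile partner of IGFBP3 in blood, was at 4.13 to 5.58 on all arrays and not called. Igfbpl1 was lower in NPC (4.05 to 4.21) than in ES cells (5.04 to 5.33), by -1.08 on the log2 scale, and this call was lost at a pseudocount of 64 and when its probe sets were averaged.

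**Figure D3:**
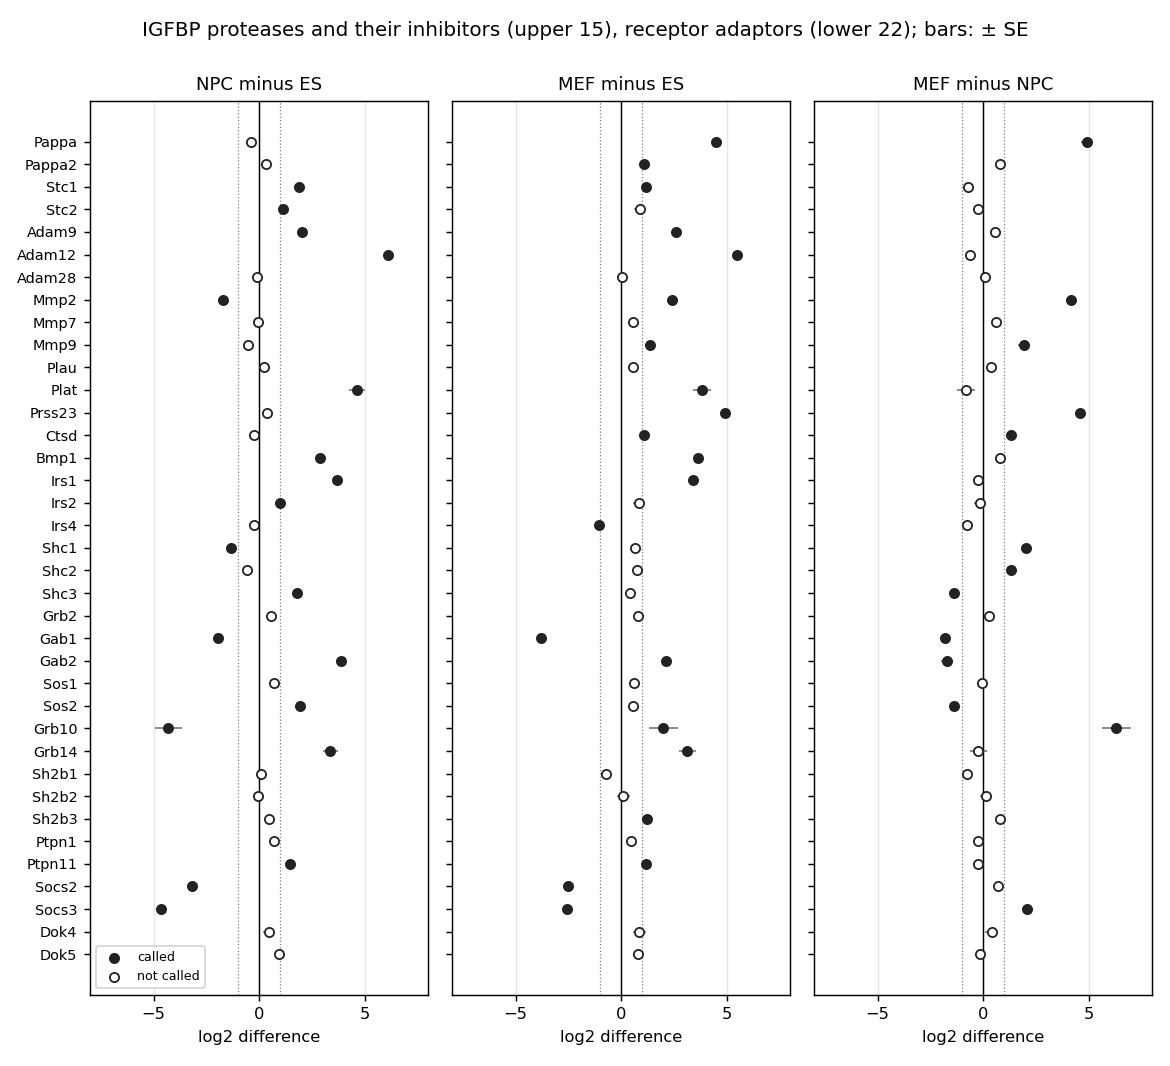
Log2 difference of 15 proteases and inhibitors and of 22 adaptors and docking proteins in the 3 comparisons, with bars for the standard error, dotted lines at a difference of 1 and filled points for called genes. Among proteases and inhibitors 11 are called higher in MEF than in ES cells, whereas the adaptors hold called genes on both sides, with Gab1 lower in all 3 comparisons (in MEF against NPC not at the deposited scaling).

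Receptor adaptors went both ways. Of 22, 7 were higher and 5 lower in NPC than in ES cells, where 10% and 12.9% of all genes were. In MEF against ES cells 6 were higher and 4 lower, against 12.2% and 12.8% of all genes. In MEF against NPC 4 were higher and 4 lower, against 10.5% and 7.95%. Irs1, the docking protein of the insulin and IGF1 receptors, was at 5.86, 6.20 and 6.36 in ES cells, 9.79, 9.74 and 9.88 in NPC, and 9.58 and 9.53 in MEF. ES cells were low and both other types high, with log2 differences of 3.66 (limma adjusted p = 5.61e-08) and 3.41 (limma adjusted p = 2.41e-07). Irs2 was at 5.28 to 5.72 in NPC and 4.21 to 5.10 in ES cells, with a difference just past the minimum whose call ended without ES 1, ES 3, NPC 1, NPC 2, MEF 1 or MEF 2. Gab1 was highest in ES cells, at 10.70 to 10.83, against 8.56 to 9.03 in NPC and 6.95 and 6.96 in MEF, and its call between the latter ended at the deposited scaling (-0.98). Grb14, an adaptor that inhibits the insulin receptor, was at 5.32 to 5.87 in ES cells, 7.94, 9.46 and 9.35 in NPC, and 8.70 and 8.67 in MEF. Shc1, an adaptor to the RAS branch, was lowest in NPC, at 7.01 to 7.33, against 8.44 to 8.56 in ES cells and 9.10 and 9.26 in MEF. Gab2 went the other way in NPC (3.87), a call that ended without probe sets of shared sequence. Socs2 and Socs3, which encode inhibitors of cytokine and growth factor receptors, had their highest levels in ES cells, with differences of -3.20 and -4.66 in NPC and -2.53 and -2.59 in MEF.

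The PI3K, AKT and mTOR branch had 23 measured genes. In NPC against ES cells 6 were higher and 3 lower, and in MEF against ES cells 5 were higher and 3 lower. In MEF against NPC 3 were higher and 2 lower. Over all genes 22.9%, 25% and 18.5% were called in these comparisons. Akt1 was at 7.59 to 7.90 in ES cells, 8.83 to 9.29 in NPC and 10.25 on each MEF array, and was 2.51 higher in MEF than in ES cells (limma adjusted p = 1.61e-06). The regulatory subunit genes Pik3r1 and Pik3r3 were higher in NPC than in ES cells (2.95 and 2.91) and lower in MEF than in NPC (-1.86 and -1.76). The latter pair of calls ended at the deposited scaling. Inpp5d, a phosphatase that acts on the lipid product of PI3K, was at 8.87 to 9.19 in ES cells, 4.09 to 5.04 in NPC, and 5.50 and 5.45 in MEF. Of 6 measured genes of the RAS and MAP kinase branch, Rps6ka3 alone was called, in both comparisons with ES cells. It was higher in NPC (2.05) and in MEF (1.44), and both calls were lost when its probe sets were averaged. Over all genes 22.9% and 25% were called in these comparisons.

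The last list held RNA-binding and imprinted partners. H19 and Igf2bp2 were listed but not measured. Of 10 genes, 1 was higher and 3 lower in NPC than in ES cells, and 3 were higher and 2 lower in MEF than in ES cells. In MEF against NPC 4 were higher and none lower. The shares called over all genes were 22.9%, 25% and 18.5%. Igf2bp1, which binds Igf2 mRNA among others, was at 10.26 to 10.30 in ES cells, 4.16 to 4.56 in NPC and 8.41 on each MEF array. Against ES cells its log2 difference was -5.92 in NPC (limma adjusted p = 3.65e-09) and -1.87 in MEF (limma adjusted p = 4.48e-06). Igf2bp3 was at 8.65 to 9.65 on all arrays and not called. Phlda2, an imprinted growth-restraining gene, was at 10.75 to 10.87 in ES cells and 4.09 to 4.52 on the other 5 arrays. Dlk1, an imprinted gene of mesenchyme, was at 8.85 and 8.63 in MEF and 5.00 to 5.75 elsewhere, and its MEF calls were lost without probe sets of shared sequence.

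NPC 1 lay apart from the other NPC arrays for several imprinted genes of these lists, Grb10, Plagl1, Mest and Cdkn1c. Other imprinted genes there gave smaller gaps, with Dlk1 at 5.75 against 5.00 and 5.02 and Airn at 7.00 against 7.71 and 7.56. Phlda2 was near the floor on all NPC arrays. NPC 1 also lay apart for genes not known as imprinted, among them Htra1 and Grb14 above and Foxo4 (6.05 against 7.70 and 7.83). Plat was a further case (10.95 against 9.48 and 9.25). Another was the gap junction gene Gja1 (10.15 against 7.43 and 7.30). Foxo4, Gja1 and Cdkn1c were picked after their values were seen. Grb10, an imprinted adaptor that inhibits the insulin and IGF1 receptors, was at 9.82, 9.98 and 9.97 in ES cells, 7.46, 4.65 and 4.74 in NPC, and 11.94 and 11.89 in MEF. Its log2 difference in NPC against ES cells was -4.30 (limma adjusted p = 0.000375), and -5.26 without NPC 1. Its higher level in MEF than in ES cells (1.99, limma adjusted p = 0.0438) lost its call without any ES or MEF array. Plagl1, an imprinted zinc finger factor, was at 7.45 to 7.56 in ES cells, 7.08, 4.12 and 4.13 in NPC, and 11.03 and 11.08 in MEF. Its fall in NPC (-2.40, limma adjusted p = 0.0156) became -3.41 without NPC 1, lost its call without NPC 2 or NPC 3, and turned to 0.55 without probe sets of shared sequence. Mest, an imprinted gene of mesoderm, was at 4.99 on NPC 1 and at 11.92 and 12.07 on NPC 2 and NPC 3. It was at 8.89 to 9.16 in ES cells and 9.34 and 9.31 in MEF. Cdkn1c was at 5.20 on NPC 1 and at 7.51 and 7.22 on NPC 2 and NPC 3. Its levels were 5.73 to 6.93 in ES cells and 7.52 and 7.54 in MEF, and it was not called. Without NPC 1 the members gave 6 called genes in NPC against ES cells, 9 in MEF against ES cells and 8 in MEF against NPC, the counts found with it.

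**Figure D4:**
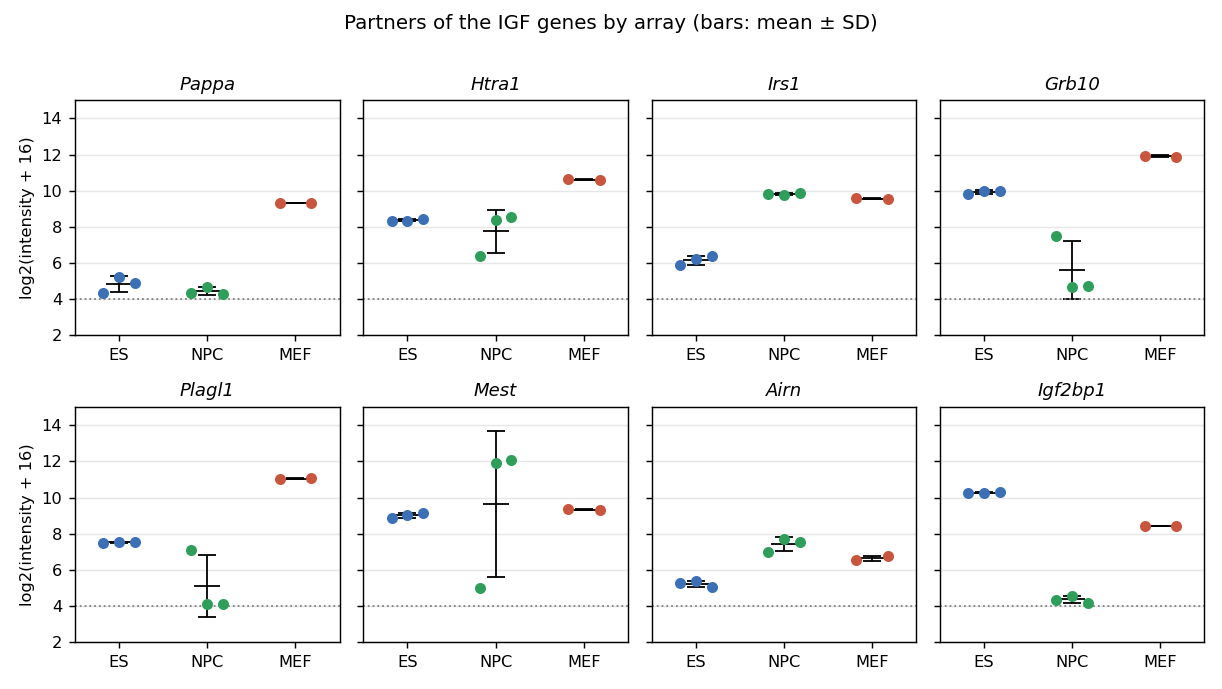
Level of 8 partner genes, as log2(intensity + 16), on the ES, NPC and MEF arrays; points are arrays in replicate order, black bars the mean and SD, and the dotted line the floor at 4. NPC 1, the leftmost NPC point, lies apart from the other NPC arrays for Htra1, Grb10, Plagl1 and Mest. Airn is slightly lower on NPC 1 (7.00 against 7.71 and 7.56). Irs1 is close together within NPC, as are Pappa and Igf2bp1, which are near the floor there.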

How the data were processed

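Each sample came with deposited probe set intensity on a linear scale. Per the submitters' processing notes GCOS 1.4 was used; how it summarised, corrected and scaled the arrays is not given in the sources used here. Sample titles gave the groups. Leaving out 64 controls gave 45037 probe sets: 34945 with a single gene in the platform annotation, 932 with several and 9160 with none. The deposited intensity was turned into log2(intensity + 16) and quantile normalized. For each gene the probe set brightest on average stood for it, and no filter on low values was used. A single limma 3.58.1 model (R 4.3.3, variance trend) held all 3 groups, so that the spread was estimated jointly, which matters most for the 2 MEF arrays. Benjamini-Hochberg adjustment ran over all 18193 genes, or over 34945 probe sets where these were tested alone. The code was tested on simulated data, and the number of arrays limits the precision.

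The members and lists were chosen with earlier results of these data known. Pathway genes were named from the called genes with the 3 highest and 3 lowest differences of each list and comparison, plus a fixed set of partners. Listed genes that lacked a single-gene probe set were not analysed here, among them H19 and Igf2bp2 of the fixed set. Alternatives were other scalings, pseudocounts of 1 and 64, dropping the dimmest 25% of genes, other uses of probe sets, other fits and thresholds, and dropping each array.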

Additional observations from a re-analysis of the deposited data

How the results depend on the processing

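Of 651 differences of the 10 genes under the alternatives, 635 kept their direction and side of the threshold. Leaving out each array in turn gave 6, 9 and 8 called members in NPC against ES cells, MEF against ES cells and MEF against NPC, as with all arrays, where a lone MEF array is assumed to vary like the other groups. Without single arrays the Igfbp2 difference in NPC against ES cells ran from -0.0043 to 0.19 and that of Igfbp6 from -0.16 to 0.059, neither called. Igfbp3 in MEF against ES cells turned to 0.22 with median centring, 0.54 at the deposited scaling and 0.098 with averaged probe sets, and Igfbp4 in MEF against NPC turned to 0.010 at the deposited scaling. Without probe sets of shared sequence, Igfbp2, Igfbp4 and Igfbp5 could not be measured, Plagl1 turned to 0.55 in NPC against ES cells and -0.046 in MEF against NPC, and Gab2 turned to 0.28 in the latter. The cause was not tested.

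Requiring a log2 difference of 2 cut the called members in MEF against NPC from 8 to 5, the member probe sets to 13 in MEF against ES cells and 10 in MEF against NPC, and the pathway genes from 34, 37 and 24 to 18, 19 and 10 in the 3 comparisons. It cut the calls over all genes from 4173, 4554 and 3359 to 1509, 1560 and 1247. A pseudocount of 64 gave 2638, 2948 and 2110, and the deposited scaling gave 5101 in MEF against NPC. Replicate numbers did not pair the samples (correlations of deviations from -0.02 to 0.02), and a replicate block gave 6, 9 and 8 called members and 4186, 4564 and 3357 genes. Genes near the floor are limited by signal over background, and no detection calls were used.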
